A study of Mus musculus with 49 samples.

Results

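Between 1 h and 12 h after a toxic dose of acetaminophen (APAP, paracetamol), mouse livers gained transcripts of heat shock proteins, of the oxidant response and of ribosome assembly, and lost transcripts of bile acid, fasting and pericentral hepatocyte metabolism. These changes are described here for the 36964 of 45101 probe sets of the array that held no value on any control array, so that comparisons with control cannot cover them. The members were found by that missing control value alone, without use of the 1 h or 12 h values. They comprised 64 control probe sets of the manufacturer, which are not counted further, and 36900 probe sets of transcripts. A single gene symbol was given for 27575 of these, several symbols for 709 and no symbol for 8616. Each of the 15440 genes named in this way was represented by its member probe set with the highest mean level. For 12218 genes every probe set on the array lacked a control value, and 3222 genes also had a probe set with control values.

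Livers of male C57BL6/N mice were hybridised to the Affymetrix Mouse Genome 430 2.0 array. The mice were starved overnight, then received 300 mg/kg APAP intraperitoneally in warm phosphate-buffered saline and were fed freely from then on. The groups compared are livers taken 1 h and 12 h after the dose, with 5 arrays each; the 1 d, 2 d and 16 d groups, also with 5 arrays each, carry the same probe sets and entered the fit. The 16 d time is known from the array labels alone, and no age is stated for the mice. All 5 groups share the strain, the sex, the fast and the dose, and time since the dose and time since food was returned cannot be told apart in this comparison. Nothing in the labels ties each numbered array to its own mouse, so the p-values refer to the spread among arrays, some of which may be technical.

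APAP is turned by cytochrome P450 enzymes, chiefly in hepatocytes around the central vein, into a reactive quinone imine. That product uses up glutathione, binds proteins, stresses mitochondria and kills the cells. The transcription factors HSF1 (misfolded protein), NRF2 (electrophiles and oxidants), ATF4 (amino acid and endoplasmic reticulum stress) and p53 (DNA damage) each switch on a set of protective genes in such cells. Surviving hepatocytes then turn from metabolic work towards repair and growth, and white blood cells enter the tissue. In bulk liver RNA, fewer cells of a type and less RNA per cell cannot be told apart.

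Values are log2 expression levels as deposited. Levels of a group are means ± SD over 5 arrays, and a change is the 12 h mean minus the 1 h mean ± its standard error (SE) from limma. A probe set or gene counts as called, or as having risen or fallen, where limma's p, adjusted by Benjamini and Hochberg's method over every probe set of the array, was under 0.05. Values ran from 1.8 to 14.34, and the lowest 10% of the member values lay under 2.83, so changes near either end can be understated. Within an array the values had an SD of 1.92 on 1 h replicate 3 and of 1.91 on 16 d replicate 4, against 2.03 to 2.15 on the other 23 arrays. The difference between 3' and 5' beta-actin control probe sets, a sign of RNA length, was 0.52 to 0.73 at 1 h and 0.32 to 0.42 at 12 h; the same difference for the transferrin receptor was 2.19 to 2.41 and 2.46 to 2.83. The part of these shifts in the results was not tested. The array of 16 d replicate 5 stood apart from its group: of the 106 genes chosen for description that rose, 58 were higher on it than on the other 4 arrays of 16 d. Atf3, for example, was at 10.19 there and at 5.31 to 5.72 on the others. Without that array 4544 of the 36900 probe sets were called, against 4624 with it.

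Of the 36900 probe sets, 2001 were called higher at 12 h (5.42%) and 2623 lower (7.11%), 4624 in all (12.5%). At least 2-fold changes numbered 609 higher (1.65%) and 363 lower (0.984%), but 480 and 518 without 1 h replicate 3. By gene, 1079 of 15440 rose (6.99%) and 1380 fell (8.94%), 15.9% in all, and the median change was -0.08. All 5 arrays of 12 h lay above all 5 of 1 h for 1682 probe sets and below them for 1842, beside the 12.5% called. The excess of falls among all calls did not hold throughout: there were 1770 higher and 1731 lower without 12 h replicate 2, 1783 and 1756 without 12 h replicate 3, and 1620 and 1612 with the 10 arrays of 1 h and 12 h alone. Without 1 h replicate 3 the numbers were 1543 higher and 2700 lower.

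The split between higher and lower also moved with what was held constant between arrays. Centring each array on its median gave 2326 higher and 1557 lower. Transcripts of ribosomal proteins were themselves more abundant at 12 h, with an array median of 10.93 to 11.14 against 10.64 to 10.85 at 1 h. Centring on the 102 ribosomal protein probe sets therefore shifted the median change of all member probe sets from -0.08 to -0.46 and left 879 higher and 25800 lower. Counts under this ribosomal centring are given below wherever they turn the direction of a gene group.

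**Figure D1:**
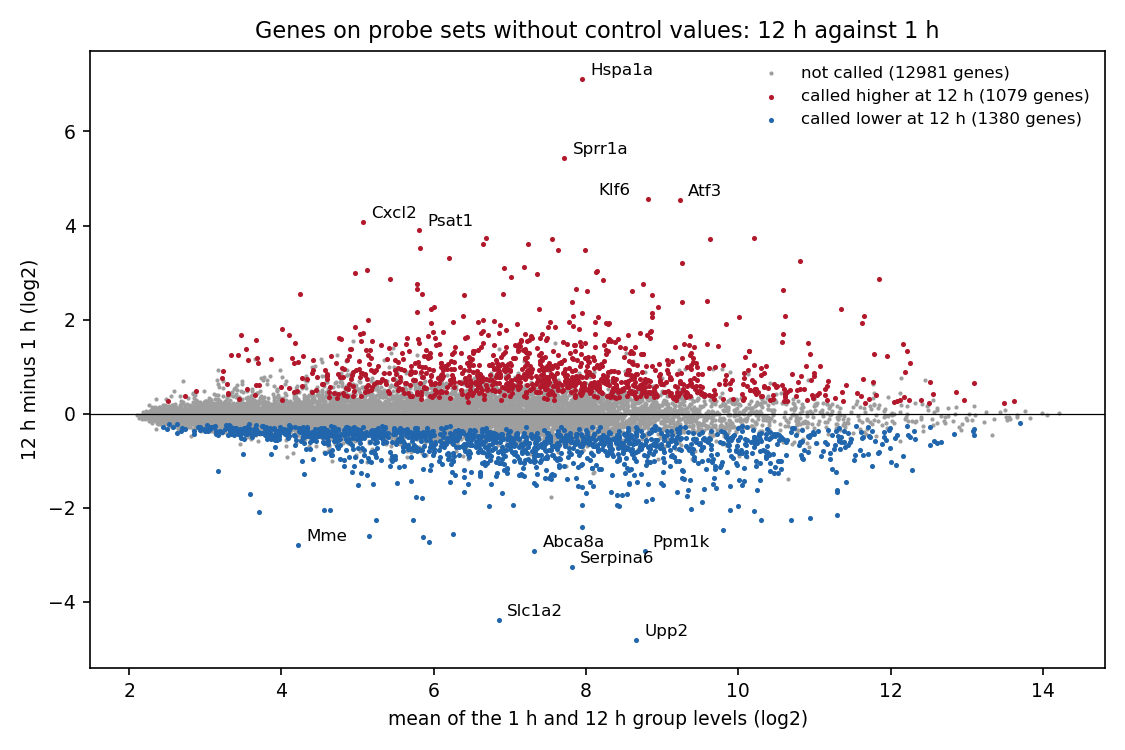
Change from 1 h to 12 h (12 h mean minus 1 h mean, log2, vertical axis) against the mean of both group levels (log2, horizontal axis) for the 15440 genes on probe sets without control values, 1 point per gene. Red points are the 1079 genes called higher at 12 h and blue points the 1380 called lower; the largest change is the rise of Hspa1a.

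Among the 8137 probe sets with control values 836 were called higher (10.3%) and 714 lower (8.77%), larger shares than among those without. They were also brighter, with a median level of 5.79 against 4.56 for those without. At matched levels the shares lay close together. Below a level of 4, 4.14% of the probe sets without and 4.38% of those with control values were called. From 6 to 8 the shares were 21.4% and 23.3%, and at 10 or more they were 45.5% and 47.9%.

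**Figure D2:**
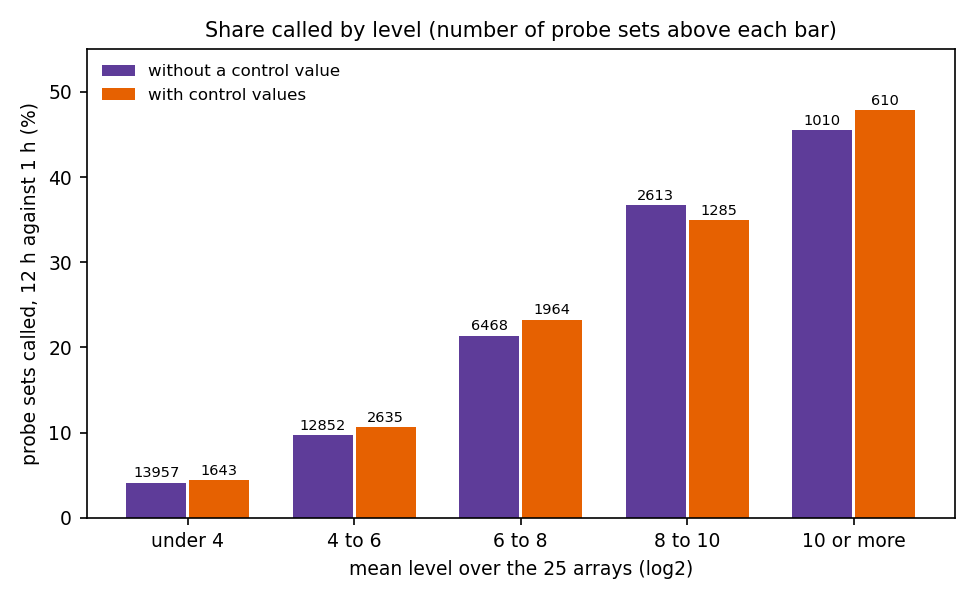
Share of probe sets called at 12 h against 1 h (%, vertical axis) by mean level over the 25 arrays (log2, horizontal axis), for probe sets without (purple) and with (orange) control values. The number above each bar is the number of probe sets; the share rises from 4.14% to 45.5% without and from 4.38% to 47.9% with control values.

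For the 3222 genes measured by both kinds of probe set, 587 were called by the probe set without control values (18.2%) and 643 by the other. Both called the gene in the same direction for 334 genes, which is 57.4% of the first and 52.4% of the second. They were called in opposite directions for 3 genes, Eif3d, Plpp2 and Pde4dip; the calls of Eif3d and Pde4dip were lost when 1 array was left out, with adjusted p up to 0.0868 and 0.0522. Of the 587, 536 had the same sign of change on the probe set with control values.

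Among genes with no control value on any probe set, the 12 largest rises were those of Hspa1a, Sprr1a, Atf3, Cxcl2, Psat1, Lcn2, Plet1, Gadd45a, Cidec, Myc, S100a9 and Prg4. They were chosen among genes whose arrays do not overlap, so that separation is no result. Hspa1a, the inducible HSP70 chaperone that refolds damaged proteins, read 4.06, 4.35, 4.29, 4.24 and 5.01 on the arrays of 1 h. On those of 12 h it read 12.75, 9.05, 12.06, 11.99 and 11.69, with replicate 2 far below the others. The change was 7.12 ± 0.62, or 139-fold (adjusted p = 4.78e-08). Its 1 h mean of 4.39 lay near 4.56, the median level of the member probe sets. Sprr1a, a small proline-rich protein of cornified and injured epithelia, read 5.13, 4.52, 5.09, 5.13 and 5.11 at 1 h and 10.88, 10.14, 10.56, 10.11 and 10.47 at 12 h, and rose by 5.44 ± 0.34 (adjusted p = 3.99e-10). Its arrays were tight in both groups, and its level was still 9.31 ± 1.14 at 2 d.

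Atf3, a stress-induced transcription factor of the ATF family, read 6.61, 6.79, 6.91, 7.39 and 7.09 at 1 h and 11.40, 11.46, 11.37, 11.29 and 11.99 at 12 h. It rose by 4.55 ± 0.64 (adjusted p = 3.24e-05); without 16 d replicate 5 the SE was 0.36 and the adjusted p 9.75e-09. Cxcl2, a chemokine that draws neutrophils, read 2.92, 2.78, 2.94, 3.29 and 3.21 at 1 h and 4.38, 10.46, 6.70, 7.63 and 6.33 at 12 h. Its 1 h mean of 3.03 lay near the lower end of the scale. Its rise of 4.08 ± 0.87 (adjusted p = 0.00231) came with an SD of 2.22 among the arrays of 12 h. S100a9, an abundant calcium-binding protein of neutrophils, also varied widely at 12 h: it read 6.34, 6.21, 5.86, 6.14 and 4.95 at 1 h and 7.09, 9.60, 11.16, 11.28 and 7.71 at 12 h, and rose by 3.47 ± 0.67 (adjusted p = 0.00101). The arrays highest for Cxcl2 (replicate 2) and for S100a9 (replicates 3 and 4) were not the same.

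Psat1, a transaminase of serine synthesis, rose from 3.85 ± 0.30 to 7.75 ± 0.77, a change of 3.90 ± 0.37 that its other probe set matched with 3.48. Lcn2 (lipocalin 2), an iron-siderophore binding acute phase protein, rose from 8.33 ± 0.28 to 12.07 ± 0.35 and was at 12.49 ± 0.52 at 1 d and 12.20 ± 0.58 at 2 d. Gadd45a, a growth arrest and DNA damage gene, rose from 5.43 ± 0.63 to 9.04 ± 1.05. Myc, the growth-promoting transcription factor, rose from 6.24 ± 0.21 to 9.72 ± 0.59, with changes of 3.60 ± 0.75 for Gadd45a and 3.48 ± 0.58 for Myc. Neither was called at 1 h against 16 d.

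Cidec, a lipid droplet protein known from adipose tissue and fatty liver, rose from 4.06 ± 0.64 to 7.59 ± 0.74 (3.53 ± 0.70). Prg4 (lubricin), a secreted glycoprotein, had little spread, with 1 h arrays between 7.49 and 7.83 and 12 h arrays between 10.52 and 11.26. Its change was 3.21 ± 0.17 (adjusted p = 1.8e-11). Plet1, a surface protein of placental and progenitor epithelia, rose by 3.61 ± 0.31, while its other probe sets changed by -0.14 and 1.11. At 16 d the level of 11 of these 12 genes differed from 12 h, all but S100a9, and that of Prg4 differed from 1 h, beside 16.6% and 2.22% of all genes called in those 2 comparisons. Without 16 d replicate 5 all 12 differed from 12 h and Lcn2, not Prg4, from 1 h. These share arrays with the main comparison and are a description.

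The 12 largest falls were those of Upp2, Slc1a2, Serpina6, Abca8a, Ppm1k, Tenm3, Hsd3b2, Nxpe2, Dixdc1, Glul, Enpp3 and Fam107a. Several are genes of hepatocyte metabolism. Upp2, uridine phosphorylase 2, read 10.86, 10.81, 11.10, 11.08 and 11.46 at 1 h and 7.71, 6.38, 4.17, 6.41 and 6.61 at 12 h. It changed by -4.80 ± 0.73, 27.9-fold lower (adjusted p = 7.65e-05), and was lowest at 1 d with a mean of 4.94 ± 1.56. Slc1a2, a glutamate transporter that in liver marks the hepatocytes next to the central vein, read 8.51, 9.27, 8.80, 9.17 and 9.46 at 1 h and 5.06, 4.45, 4.32, 5.09 and 4.40 at 12 h. Its change was -4.38 ± 0.22 (adjusted p = 1.38e-11), and it was still at 4.28 ± 0.18 at 2 d before 8.66 ± 0.51 at 16 d. Its 4 other probe sets changed by -2.88 to 0.10, and their mean with it was -1.75.

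Glul, glutamine synthetase, the textbook enzyme of the same innermost ring of hepatocytes, read 10.87, 11.06, 11.10, 11.09 and 11.03 at 1 h and 8.84, 8.74, 8.01, 8.61 and 8.61 at 12 h. It changed by -2.47 ± 0.17 (adjusted p = 1.87e-09). Serpina6, the corticosteroid-binding globulin of plasma, read 9.51, 9.75, 8.87, 9.89 and 9.20 at 1 h and 5.65, 7.07, 5.53, 6.18 and 6.51 at 12 h, a change of -3.25 ± 0.49. Ppm1k, the phosphatase that activates branched-chain keto acid oxidation, went from 10.23 ± 0.32 to 7.31 ± 0.68 (-2.92 ± 0.36). Abca8a, an ABC transporter of hepatocytes, went from 8.78 ± 0.40 to 5.86 ± 0.40 (-2.93 ± 0.38). Hsd3b2, a hydroxysteroid dehydrogenase, went from 7.17 ± 0.48 to 4.55 ± 0.71 (-2.62 ± 0.44).

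Enpp3, an ectonucleotidase, changed by -2.40 ± 0.29 (its 4 other probe sets by -2.20 to -0.14), and Tenm3, a teneurin adhesion protein, by -2.72 ± 0.40. Nxpe2 changed by -2.61 ± 0.27 on a probe set whose partner changed by -0.05, and Dixdc1, a Wnt pathway protein, by -2.55 ± 0.48 with its 3 other probe sets between -0.68 and -0.15. Fam107a, an actin-associated stress gene, stood apart among these falls: it read 6.30, 5.95, 5.48, 7.72 and 8.83 at 1 h and 5.01, 3.81, 3.66, 5.35 and 5.10 at 12 h (-2.27 ± 0.55, adjusted p = 0.00691). It was at 4.31 ± 0.54 at 16 d, against which 12 h was not called (adjusted p = 0.801), while 1 h was (adjusted p = 0.0129). Its 2 other probe sets changed by -1.08 and -0.82. For the other 11 falls 12 h was called against 16 d and 1 h was not.

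**Figure D3:**
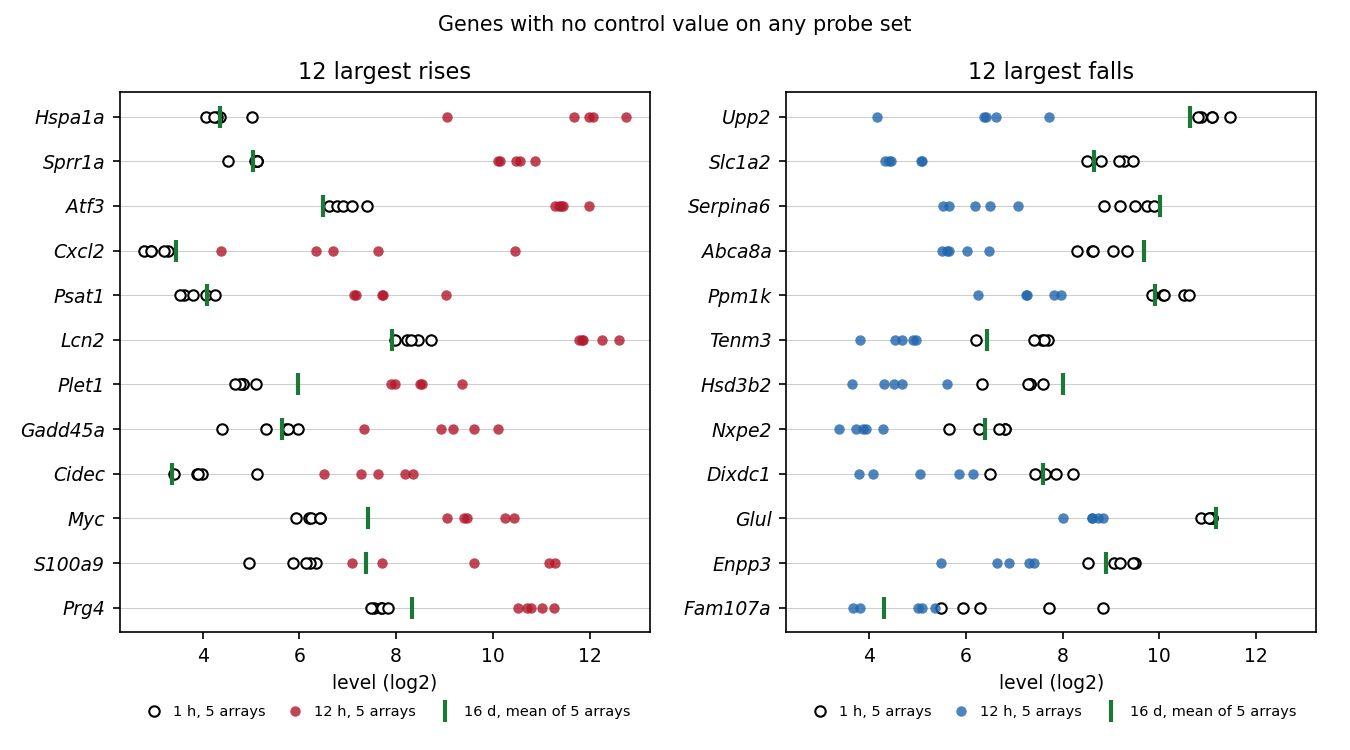
Levels (log2, horizontal axis) on each array of 1 h (open circles) and 12 h (filled circles) for the 12 largest rises (left) and the 12 largest falls (right) among genes with no control value on any probe set; the green bar is the mean of 16 d. The 12 h arrays of Hspa1a run from 9.05 to 12.75 and those of Cxcl2 from 4.38 to 10.46, and in the right panel Fam107a alone has its 16 d mean nearer to the 12 h than to the 1 h mean.

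For genes that also have a probe set with control values, the largest rises were those of Klf6, Lor, Efna1 and Srxn1. Klf6, a zinc finger transcription factor of injury, read 6.32, 6.36, 5.91, 6.94 and 7.13 at 1 h and 10.85, 11.47, 10.59, 11.39 and 11.17 at 12 h; it rose by 4.56 ± 0.55, and by 4.94 ± 0.61 on the probe set with control values. Srxn1 (sulfiredoxin), an NRF2 target that reactivates peroxiredoxins, read 7.79, 7.65, 7.61, 7.86 and 7.95 at 1 h and 11.65, 11.88, 11.43, 10.98 and 11.50 at 12 h. It rose by 3.72 ± 0.26 on this probe set and by 1.66 ± 0.16 on the other. Lor (loricrin), a protein of the cornified layer of skin, rose by 3.73 ± 0.37 and 2.63 ± 0.25, and Efna1, an ephrin ligand, by 3.72 ± 0.53 and 3.46 ± 0.55.

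The largest falls of this kind were those of Mme (neprilysin, a membrane peptidase) with -2.78 ± 0.39, Slc13a3 (a dicarboxylate transporter) with -2.26 ± 0.29, Lipg (endothelial lipase) with -2.05 ± 0.31 and Lpin1 (lipin 1, a phosphatidate phosphatase and coactivator of fasting genes) with -1.97 ± 0.44. The probe sets with control values gave -1.18 ± 0.16, -0.93 ± 0.18, -2.49 ± 0.31 and -2.24 ± 0.51 in that order. Slc13a3 had 3 other probe sets, which changed by -0.93 to -0.04, and 1 of them was called. The mean over its member probe sets was -0.78. Lpin1 read 10.62, 10.87, 10.78, 11.20 and 11.43 at 1 h and 9.86, 6.98, 8.35, 9.87 and 10.00 at 12 h, with replicates 2 and 3 lowest. Mme at 12 h lay at 2.83 ± 0.31, at the floor of the scale, where its fall can be understated.

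Over all genes 6.99% rose and 8.94% fell, and the list counts from here on stand beside these shares. The heat shock list held 24 measured genes, of which 11 rose and 1 fell. Its median change was 0.60, against -0.08 over all genes. Beside Hspa1a, Hspb1 (HSP27, a small chaperone that guards actin) rose from 9.19 ± 0.60 to 12.44 ± 0.81, by 3.25 ± 0.38. Hspa1b, the twin of Hspa1a, rose from 10.42 ± 0.61 to 13.28 ± 0.38, by 2.87 ± 0.32; both genes encode nearly the same protein, and their probe sets may share target sequence. Dnaja4, an HSP40 cochaperone, read between 5.34 and 9.42 at 12 h and rose by 2.53 ± 0.46. Hsph1 (HSP110), the mitochondrial chaperonin pair Hspd1 and Hspe1, Hsp90aa1, Hspa8, Dnaja1 and Hspa13 were also called, with changes from 0.68 for Hspa8 to 2.08 for Hsph1. Levels of the 24 genes averaged 7.86 to 8.39 on the arrays of 1 h and 8.69 to 9.60 on those of 12 h.

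HSF1 binds inverted repeats of GAA. The promoter windows of RefSeq (250 bases before to 50 after each gene's start, GRCm38.p6) were searched on both strands for its core, the units GAA, TTC and GAA with any 2 bases between neighbours. It stood in 0.603% of all 32851 windows. Of the genes on probe sets without control values that had a window, 0.653% held it. A gene was counted as holding a motif where any of its windows did. Of the 11 heat shock genes that rose, 8 had a window and 3 held the motif: Hsph1, Hspd1 and Hspe1. Of the 12 not called, 11 had a window and 2 held it, Chordc1 and Dnajb6. Windows of Hsph1 (1 of its 2) and Hspe1 are shown with the match in capitals. That of Hspe1 overlaps the window of Hspd1, its divergent neighbour, and its 2 matches, 89 and 84 bases before the start, overlap each other. In Hsph1 the match begins 15 bases after the start.
Hsph1, chr5:149636266-149636565, minus strand: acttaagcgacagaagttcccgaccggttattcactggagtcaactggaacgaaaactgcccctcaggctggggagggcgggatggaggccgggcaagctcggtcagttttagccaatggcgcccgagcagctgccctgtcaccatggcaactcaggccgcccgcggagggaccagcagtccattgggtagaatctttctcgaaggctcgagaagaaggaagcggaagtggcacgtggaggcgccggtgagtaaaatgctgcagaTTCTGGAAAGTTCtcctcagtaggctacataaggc
Hspe1, chr1:55087898-55088197, plus strand: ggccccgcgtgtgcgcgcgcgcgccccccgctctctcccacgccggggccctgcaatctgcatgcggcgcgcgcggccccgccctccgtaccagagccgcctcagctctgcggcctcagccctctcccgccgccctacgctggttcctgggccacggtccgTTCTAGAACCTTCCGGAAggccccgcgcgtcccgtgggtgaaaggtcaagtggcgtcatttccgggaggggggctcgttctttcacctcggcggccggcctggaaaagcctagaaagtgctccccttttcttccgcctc
Hsph1 rose from 9.57 ± 0.59 to 11.66 ± 0.49, Hspe1 from 11.14 ± 0.16 to 12.42 ± 0.27 and Hspd1 from 11.72 ± 0.12 to 12.79 ± 0.28. A match describes the letters of the window and is not a measured binding site.

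The NRF2 list held 23 genes, of which 12 rose and 1 fell (median change 0.61; 12 and 1 also without 1 h replicate 3). Hmox1, the haem oxygenase, rose from 8.39 ± 0.72 to 10.79 ± 0.78 (2.40 ± 0.45). Pgd, an enzyme of the pentose phosphate pathway that yields NADPH, rose from 8.08 ± 0.46 to 10.45 ± 0.27 (2.37 ± 0.20), and Cbr3, a carbonyl reductase, from 5.35 ± 0.32 to 7.43 ± 0.49 (2.07 ± 0.23). With Srxn1 these are the 4 largest changes of the list. Pgd was called in both directions around 16 d: it was below its 16 d level at 1 h (adjusted p = 0.00139) and above it at 12 h (adjusted p = 0.00018). The antioxidant response element TGACNNNGC stood in 12.4% of all windows. Among the genes on probe sets without control values that had a window, 16.4% held it. On the list it was held by 4 of the 10 genes that rose and had a window. Of the 10 genes not called that had one, 5 held it.

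Of 21 ATF4 targets 7 rose and 3 fell (median 0.43), and ribosomal centring turned this to 5 and 8. Psat1 rose most, followed by Ppp1r15a (GADD34, which restarts translation), from 7.30 ± 0.16 to 9.22 ± 0.51. Chac1, a glutathione-degrading enzyme, rose by 1.27 ± 0.35, and was not called without 12 h replicate 2 (0.98, adjusted p = 0.0637). Cth, the cystathionine lyase that supplies cysteine for glutathione, went the other way, from 12.88 ± 0.09 to 11.68 ± 0.41. The element TGATGNAA, bound by ATF4 with C/EBP factors, stood in 3.97% of windows. Among the genes on probe sets without control values that had a window, 3.24% held it. On the list it was held by 2 of the 7 genes that rose and had a window, Asns and Chac1. Both genes that fell and had a window held it (Pck2 and Vldlr), as did 1 of 11 not called. The call of Pck2 was lost when 1 array was left out (adjusted p up to 0.14). The element also stood in the window of Atf3, which is not on that list. The windows of Chac1 and Atf3 show it in capitals, 193 and 110 bases before the start.
Chac1, chr2:119350992-119351291, plus strand: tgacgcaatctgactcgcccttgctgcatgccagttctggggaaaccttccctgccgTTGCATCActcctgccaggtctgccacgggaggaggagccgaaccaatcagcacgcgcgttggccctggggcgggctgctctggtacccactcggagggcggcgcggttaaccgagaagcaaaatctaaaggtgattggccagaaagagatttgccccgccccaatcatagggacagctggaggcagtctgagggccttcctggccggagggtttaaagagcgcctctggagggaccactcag
Atf3, chr1:191183284-191183583, minus strand: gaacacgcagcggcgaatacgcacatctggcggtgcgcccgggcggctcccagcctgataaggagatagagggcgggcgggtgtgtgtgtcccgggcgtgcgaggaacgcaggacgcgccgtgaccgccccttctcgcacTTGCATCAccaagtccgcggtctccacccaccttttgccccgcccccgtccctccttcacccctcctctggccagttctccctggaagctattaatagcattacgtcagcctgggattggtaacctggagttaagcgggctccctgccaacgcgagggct
Such windows were found for genes that rose and for genes that fell.

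Of 20 genes of endoplasmic reticulum chaperones and the unfolded protein response 3 rose and 1 fell (6 and 1 with median centring), which ribosomal centring turned to 3 and 8. Hspa5 (BiP), the main chaperone of that compartment, rose from 11.74 ± 0.20 to 12.62 ± 0.08, Manf from 10.56 ± 0.28 to 11.43 ± 0.31 and Xbp1, its stress transcription factor, from 11.27 ± 0.09 to 12.00 ± 0.19. Herpud1, a degradation factor of the same response, went from 12.61 ± 0.14 to 11.71 ± 0.18 (-0.90 ± 0.16). These 3 rises were 0.73 to 0.88, beside 0.68 to 7.12 in the heat shock list. Of 13 p53 targets 3 rose and 1 fell (3 and 2 without 1 h replicate 3, 3 and 5 with ribosomal centring). Cdkn1a (p21), a brake on the cell cycle, rose by 1.73 ± 0.38 with arrays that overlapped, Mdm2, the ligase that degrades p53, by 1.03 ± 0.21 and Aen, a nuclease, by 0.78 ± 0.13. Other probe sets changed by -0.08 and 1.08 for Mdm2 and by -0.31 to 0.75 for Aen.

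Of 31 immediate early genes 13 rose and 1 fell (median 0.94), and 29 of the 31 had a positive change; without 16 d replicate 5 the counts were 17 and 1. The largest rises were Klf6, Atf3, Gadd45a and Myc, described above. Of 20 genes of MAP kinase feedback and EGF receptor ligands 4 rose and none fell (3 and 6 with ribosomal centring). Dusp5, a phosphatase that switches off ERK, read 5.63, 5.46, 5.92, 5.44 and 5.32 at 1 h and 7.74, 8.53, 8.57, 9.05 and 8.44 at 12 h (2.91 ± 0.47, adjusted p = 0.000154). Btc (betacellulin), an EGF receptor ligand, rose from 4.70 ± 0.30 to 6.85 ± 0.96 (2.15 ± 0.46).

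**Figure D4:**
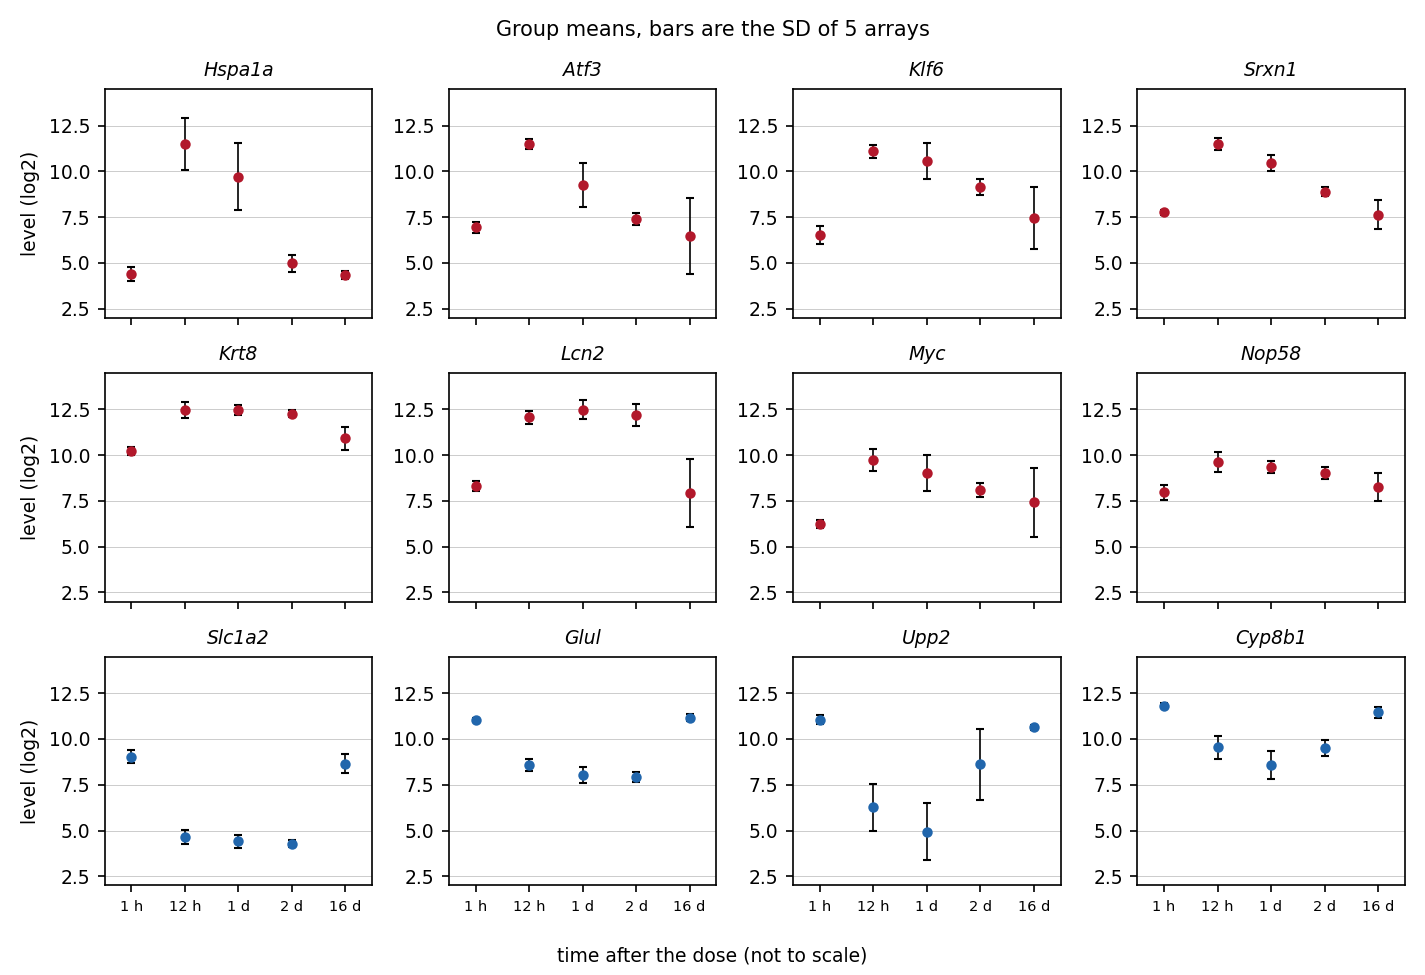
Group means with SD (log2, vertical axis) of 5 arrays each at 1 h, 12 h, 1 d, 2 d and 16 d (horizontal axis, not to scale) for 12 named genes; red marks genes higher and blue genes lower at 12 h than at 1 h. Hspa1a is back near its 1 h level at 2 d (4.97 ± 0.47), Slc1a2 and Glul are not, and the wide bars of Atf3, Klf6, Lcn2 and Myc at 16 d come from replicate 5 of that group.

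In the ribosome biogenesis list 35 of 49 genes rose and none fell (median 0.67), 32 and 0 without 1 h replicate 3 and 19 and 1 with ribosomal centring. Nop58, a core protein of box C/D small nucleolar particles, rose from 7.96 ± 0.39 to 9.63 ± 0.56 (1.67 ± 0.29). Heatr1 and Tsr1, factors of small subunit assembly, rose by 1.54 ± 0.21 and 1.46 ± 0.22, and the helicase Ddx21 by 1.36 ± 0.19. Heatr1 had 2 other probe sets, of which the higher changed by 0.07. List means per array ran from 6.61 to 7.06 at 1 h and from 7.43 to 8.04 at 12 h, without overlap. Other lists, such as heat shock and NRF2, were separate in the same way.

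The E-box CACGTG, a site that MYC with MAX can bind, stood in 7.15% of windows and in 10.3% of the genes on probe sets without control values that had a window. Of the ribosome biogenesis genes that rose, 30 had a window and 11 held it: Grwd1, Ltv1, Nle1, Nmd3, Nop2, Pno1, Tsr1, Utp18, Utp20, Utp4 and Wdr43. Of those not called, 1 of 13 held it, Imp4. The calls of Nle1 and Nmd3 were lost when 1 array was left out (adjusted p up to 0.0891 and 0.104). The window of Nop2, an RNA methyltransferase of the large subunit, shows it in capitals 60 bases before the start.
Nop2, chr6:125131633-125131932, plus strand: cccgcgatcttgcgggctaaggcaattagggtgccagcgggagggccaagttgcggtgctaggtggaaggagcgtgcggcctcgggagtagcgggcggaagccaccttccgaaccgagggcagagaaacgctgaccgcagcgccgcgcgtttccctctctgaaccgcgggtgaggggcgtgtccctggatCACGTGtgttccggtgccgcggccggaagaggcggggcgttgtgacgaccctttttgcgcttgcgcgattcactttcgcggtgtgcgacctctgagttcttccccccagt
Nop2 itself rose from 7.27 ± 0.09 to 8.16 ± 0.40.

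Other genes of protein and RNA production moved the same way. Of 21 SR and hnRNP splicing factors 14 rose and none fell (median 0.58; 8 and 3 with ribosomal centring). Among them were Srsf11 with 1.33 ± 0.15, Sfpq with 1.12 ± 0.20, Srsf10 with 1.07 ± 0.22 and Hnrnpd with 1.06 ± 0.16. The 2 other probe sets of Hnrnpd changed by -0.48 and -0.07. Those of Srsf10, 3 in number, changed by 0.27 to 0.48, and none was called. For Sfpq the 5 others changed by 0.05 to 1.09, and for Srsf11 the 3 others by 0.57 to 1.54. Of 16 aminoacyl-tRNA synthetases, which charge tRNAs, 9 rose and none fell (2 and 0 with ribosomal centring). Sars, Hars, Iars and Aars rose by 0.65 to 0.73. Of 21 proteasome subunits 5 rose and none fell, but 0 and 7 with ribosomal centring. Psmd7, Psmd3, Psmd12 and Psmd11, parts of the regulatory cap, rose by 0.40 to 0.59.

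Of 27 noncoding RNAs 6 rose and none fell, turned to 3 and 9 by ribosomal centring. Neat1, the RNA scaffold of nuclear paraspeckles, rose from 6.63 ± 0.23 to 9.64 ± 0.60 (3.01 ± 0.34, adjusted p = 1.83e-06) on a probe set whose partner changed by -0.24. Malat1, a nuclear speckle RNA, rose by 1.30 ± 0.24 and by 1.11 ± 0.31 on its probe set with control values. Snhg1, a host of small nucleolar RNAs, rose from 8.05 ± 0.36 to 9.16 ± 0.56. Of 41 regulators of histone methylation and chromatin 4 rose and none fell (3 and 3 without 1 h replicate 3, 2 and 15 with ribosomal centring). This stands beside 6.99% higher and 8.94% lower over all genes. Among the rises were the demethylase Kdm1a with 0.94 ± 0.17 and Arid5b with 1.01 ± 0.25.

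Of 26 genes of autophagy and lysosomes 4 rose and 5 fell (1 and 18 with ribosomal centring). Sqstm1 (p62), a cargo receptor that is also an NRF2 target, rose from 11.34 ± 0.07 to 12.57 ± 0.26. Ulk2, a starting kinase of autophagy, changed by -0.89 ± 0.18, Lamp2 by -0.70 ± 0.10 and Wipi1 by -0.65 ± 0.16.

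In the lists of hepatocyte metabolism more genes fell than rose. Of 22 drug-metabolising cytochromes P450 none rose and 8 fell (median -0.36); without 1 h replicate 3, 5 fell. Cyp2c54 went from 11.24 ± 0.25 to 9.17 ± 0.77, Cyp2c38 from 8.00 ± 0.39 to 6.07 ± 0.22 and Cyp2c23 from 10.79 ± 0.13 to 9.36 ± 0.41. Members of the Cyp2c family are close in sequence, so their probe sets may share signal. Of 26 conjugation enzymes none rose and 10 fell (median -0.38). Ugt2b1, a glucuronosyltransferase, changed by -1.63 ± 0.28, Ugt2a3 by -1.05 ± 0.20, the sulfotransferase Sult2a8 by -1.45 ± 0.26 and Papss2, which makes the sulfate donor, by -1.62 ± 0.25.

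Of 17 uptake transporters 1 rose and 7 fell (median -0.14). Slc10a2, the sodium-dependent bile acid carrier of ileum and bile ducts, was the rise: its arrays read 3.92 to 4.93 at 1 h and 5.62 to 7.62 at 12 h (2.55 ± 0.46). The sinusoidal carriers Slco1a1, Slco1b2 and Slc22a7 changed by -1.86 ± 0.45, -1.66 ± 0.39 and -1.36 ± 0.32. Of 15 bile acid genes 8 fell (median -0.50) and 1 was called higher, Acnat2 with 1.20 (adjusted p = 0.0482); leaving out 1 of 8 arrays ended that call, such as 1 h replicate 3 (adjusted p = 0.0946), and no gene of the list was higher with ribosomal centring. Cyp8b1, the sterol hydroxylase that sets the share of cholic acid, went from 11.82 ± 0.13 to 9.56 ± 0.63 (-2.26 ± 0.30, adjusted p = 1.38e-05). Abcb11, the bile salt export pump, went from 10.49 ± 0.24 to 8.91 ± 0.23 (-1.58 ± 0.28).

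Of 21 hepatocyte transcription factors 5 fell and none rose. Ppara, the fatty acid receptor, changed by -1.19 ± 0.28, Nr1i2 (PXR), the drug receptor, by -1.09 ± 0.23, Nr5a2 by -0.79 ± 0.19 and Hnf4a by -0.54 ± 0.10. Of 16 genes of pericentral hepatocytes 6 fell and 1 rose (6 and 0 without 1 h replicate 3; median -0.67), led by Slc1a2, Glul and Slc13a3. As means over member probe sets these changed by -1.75, -2.61 and -0.78. Lgr5, a Wnt-amplifying receptor of the innermost cells, went from 5.76 ± 0.20 to 4.25 ± 0.55 (-1.52 ± 0.23), but changed by -0.09 on its other probe set. Of 14 periportal and urea cycle genes 4 fell and none rose (median -0.27). Hsd17b6, a steroid dehydrogenase, changed by -2.05 ± 0.30 on a probe set whose partner changed by -0.006, so that their mean was -1.03. Slc7a2, an arginine carrier, changed by -1.23 ± 0.23 and Slc38a4, an amino acid carrier, by -0.51 ± 0.13. Slc7a2 changed by -0.29 ± 0.22 on its probe set with control values, which was not called. The difference between the pericentral and periportal lists was not tested.

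Of 20 genes of fasting and gluconeogenesis 12 fell and 1 rose (median -0.51). The mice were fed again after the dose, and the part of feeding was not tested. Klf15, a transcription factor of fasting, went from 10.39 ± 0.18 to 8.37 ± 0.94 (-2.01 ± 0.35), and Lpin1 is described above. Angptl4, a fasting-induced inhibitor of lipoprotein lipase, went from 4.44 ± 0.87 to 2.73 ± 0.40 with overlapping arrays, and was at 2.64 ± 0.18 at 16 d. The levels at 12 h and 16 d lay near the floor of the scale, where a fall can be understated. Trib1, a pseudokinase that lowers hepatic lipid synthesis, was the rise (1.90 ± 0.50). Of 29 PPAR alpha targets 11 fell and 2 rose (7 and 2 with median centring; median -0.55). The rises were Cidec and Acot2, a mitochondrial thioesterase, with 2.06 ± 0.40; Decr1, an enzyme of unsaturated fatty acid oxidation, changed by -1.54 ± 0.34.

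None of 18 genes of fatty acid synthesis rose and 1 fell (0 and 2 without 1 h replicate 3), Elovl5 with -0.88 ± 0.23. In cholesterol synthesis none of 18 genes rose and 2 fell, Tm7sf2 with -0.91 ± 0.19 and Scap with -0.57 ± 0.14, whose other probe set changed by 0.19. The shares over all genes were 6.99% higher and 8.94% lower. Of 42 genes of oxidative phosphorylation 1 rose and 6 fell (median -0.15), 1 and 9 without 1 h replicate 3, 1 and 0 with median centring and 0 and 40 with ribosomal centring; Ndufa6, a subunit of complex I, changed by -0.39 ± 0.10. Of 26 genes of glycolysis and hypoxia 5 rose and 1 fell (5 and 5 with ribosomal centring). Adm (adrenomedullin) rose by 1.93 ± 0.44, the glucose carrier Slc2a1 by 1.36 ± 0.35 and Hif1a by 1.12 ± 0.19, while Pdk1, which blocks pyruvate oxidation, changed by -1.32 ± 0.29.

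Of 14 glucocorticoid-responsive genes 1 rose and 3 fell (0 and 3 without 1 h replicate 3), among them Tsc22d3 (GILZ) with -1.40 ± 0.30 and Hsd11b1, which regenerates corticosterone, with -0.48 ± 0.09. Of 18 circadian clock genes 2 rose and 2 fell (1 and 2 without 1 h replicate 3, 1 and 11 with ribosomal centring). Cry1, a repressor of the clock, rose from 5.61 ± 0.58 to 6.92 ± 0.31; the 2 groups were taken at different hours after the dose, and no time of day is stated for the dose. Of 16 genes of the growth hormone axis none rose and 1 fell: Ghr, its receptor, with -1.01 ± 0.15. Beside the counts of these lists, 6.99% rose and 8.94% fell over all genes.

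Of 20 acute phase genes 5 rose and 1 fell (5 and 0 without 1 h replicate 3, 2 and 7 with ribosomal centring); Lcn2 led, and Hamp2, a hepcidin, rose by 1.02 ± 0.27, with -0.31 on its other probe set. Of 35 genes of cytokines and their signalling 9 rose and 2 fell, 12 and 2 without 16 d replicate 5, 7 and 3 without 1 h replicate 3, and 6 and 10 with ribosomal centring. Socs3, which damps interleukin 6 signalling, rose from 6.63 ± 0.33 to 9.66 ± 0.76 (3.04 ± 0.72) and Tnfaip2, a target of tumour necrosis factor, from 5.00 ± 0.40 to 6.58 ± 0.47. Of 14 chemokines 4 rose and 3 fell (3 and 7 with ribosomal centring). Cxcl1, a neutrophil chemokine like Cxcl2, rose from 7.61 ± 0.71 to 10.13 ± 1.22; its 2 other probe sets changed by 0.69 and 3.04. Pf4, a platelet chemokine, rose by 1.42 ± 0.33, and Ccl27a, a chemokine of skin, changed by -1.10 ± 0.24. Beside these rises the mean level of 7 neutrophil markers was 3.99 to 4.42 at 1 h and 4.63 to 7.04 at 12 h, and its part in them was not tested. Cxcl2 is itself 1 of these 7 markers, so their mean is not separate from the chemokine rises. Of 18 interferon-induced genes 1 rose and 4 fell, beside 6.99% higher and 8.94% lower over all genes. Oasl1 rose by 1.60 ± 0.28, and Ifit3 changed by -0.78 ± 0.20 with overlapping arrays.

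Of 21 genes of complement and coagulation, most of them secreted by hepatocytes, 12 fell and 3 rose (median -0.43). Klkb1, the precursor of plasma kallikrein, went from 11.05 ± 0.24 to 9.43 ± 0.24 (-1.63 ± 0.19). The complement genes C6 and C1s1 changed by -1.16 ± 0.23 and -0.80 ± 0.09. Plaur, the urokinase receptor, which is not a plasma protein of hepatocytes, rose from 5.10 ± 0.17 to 6.74 ± 0.87 (1.64 ± 0.36).

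Of 38 genes of the cytoskeleton and annexins 21 rose and 1 fell (median 0.49; 13 and 7 with ribosomal centring). Tubb2a, a beta tubulin, rose from 9.28 ± 0.30 to 11.90 ± 0.08 (2.62 ± 0.21, adjusted p = 1.59e-08), with an SD of 0.08 among the arrays of 12 h. Krt8 and Krt18, the keratin pair of hepatocytes, rose together, from 10.23 ± 0.21 to 12.47 ± 0.43 and from 10.61 ± 0.13 to 12.69 ± 0.40. Tpm4, a tropomyosin, rose by 2.05 ± 0.31 and was at 9.82 ± 0.26 at 2 d. Of 20 genes of TGF beta, activin and BMP signalling 9 rose and none fell (median 0.45; 7 and 6 with ribosomal centring). Id1 and Id2, inhibitors of helix-loop-helix factors, rose by 2.14 ± 0.26 and 1.90 ± 0.22. Fst (follistatin), which binds activin, rose from 4.46 ± 0.32 to 7.11 ± 1.32, and Tgfbr2, the TGF beta receptor, by 1.41 ± 0.24, while its probe set with control values changed by -0.07 ± 0.09. Of 16 YAP and TEAD targets 3 rose and none fell (3 and 5 with ribosomal centring): Ccn1 with 3.09 ± 0.62, Tead1 with 0.93 ± 0.21 and Amotl2 with 0.80 ± 0.13.

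Few genes of DNA replication and mitosis were called, beside 6.99% higher and 8.94% lower over all genes. Of 36 genes of DNA replication 1 rose and 1 fell (1 and 2 without 1 h replicate 3, 1 and 13 with ribosomal centring), and of 33 genes of mitosis none rose and 1 fell. In the mitosis list 4 of the 33 changes were positive, with a median of -0.17. That list was dim, with means of 4.40 to 4.57 at 1 h and 4.14 to 4.29 at 12 h. Of member probe sets at levels from 4 to 6, 9.67% were called. Cdt1, which licenses origins, rose by 0.92 ± 0.18 and reached 8.52 ± 0.60 at 2 d. Mcm10 changed by -1.93 ± 0.39 on a probe set whose 2 partners changed by -0.47 and -0.01. Spc25, of the kinetochore, changed by -1.43 ± 0.39, and its other probe set by 0.19. Of 25 genes of G1 cyclins and cell cycle entry 4 rose and 4 fell (3 and 12 with ribosomal centring). Ccnd1 (cyclin D1) rose by 1.34 ± 0.36 with overlapping arrays and was at 9.44 ± 0.60 at 2 d. Of 26 cell death regulators 2 rose and 1 fell (2 and 12 with ribosomal centring): Mcl1, which guards mitochondria, with 1.53 ± 0.20 and Mlkl, the effector of necroptosis, with 1.10 ± 0.19.

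**Figure D5:**
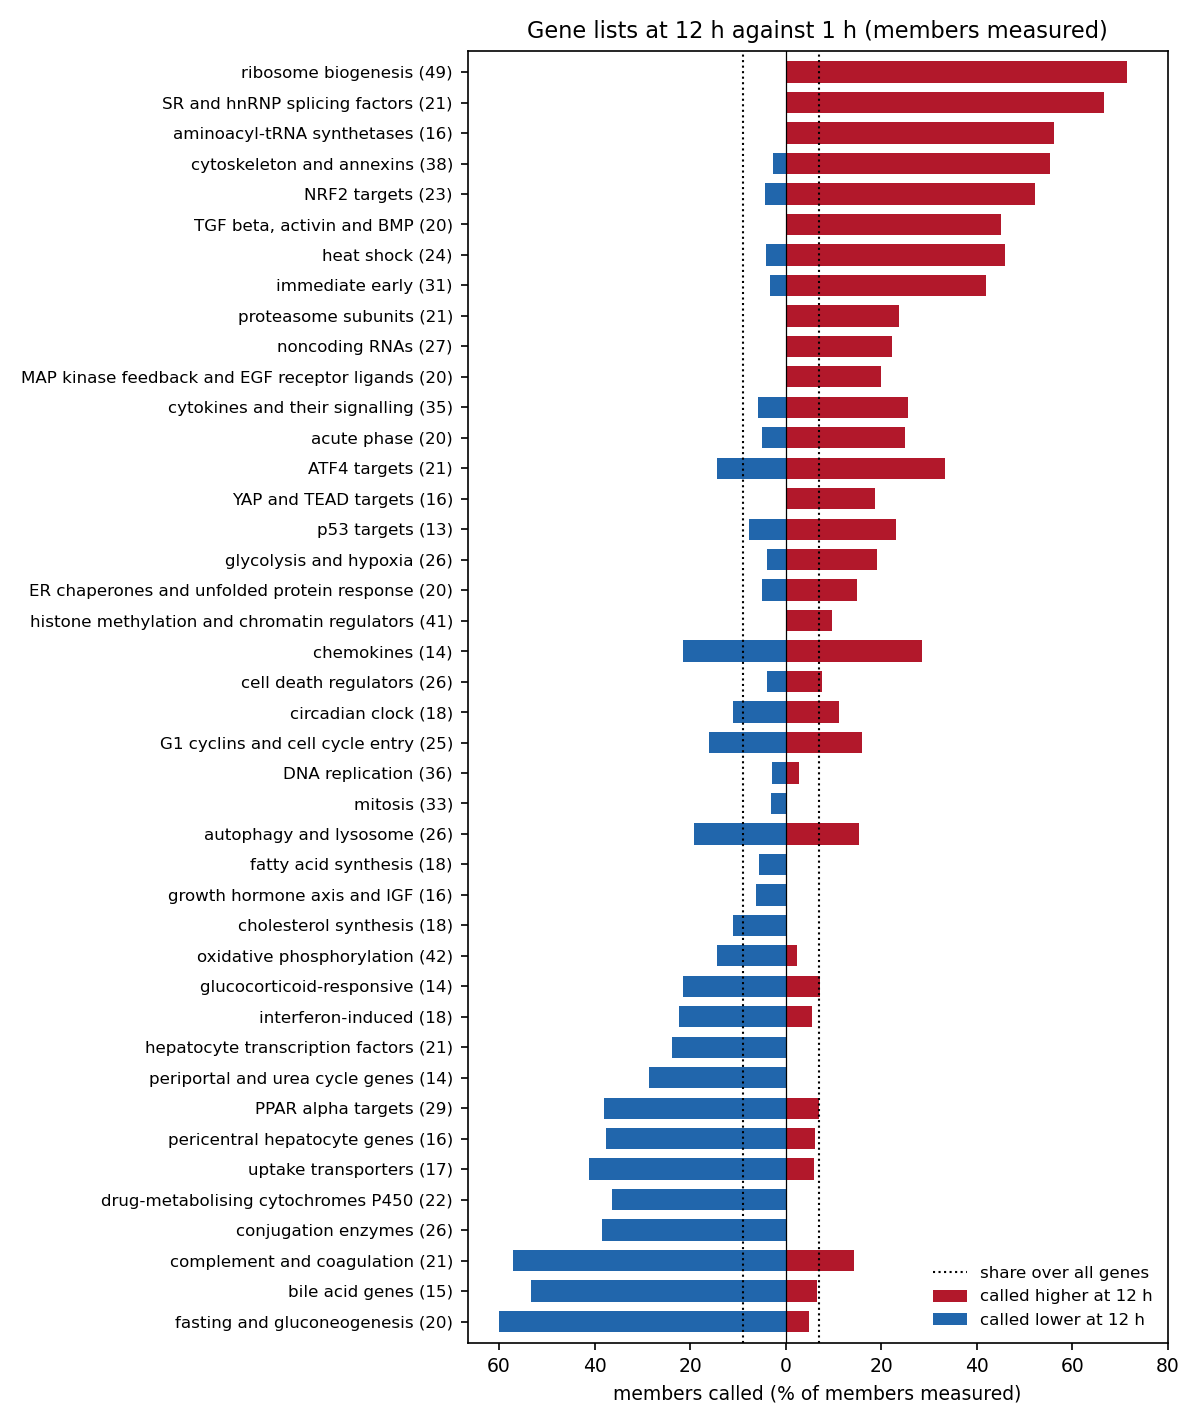
Share of the measured members of each gene list called higher (red, to the right) and lower (blue, to the left) at 12 h than at 1 h (%, horizontal axis), with the number of members measured in brackets. Dotted lines mark the shares over all 15440 genes, 6.99% higher and 8.94% lower; in ribosome biogenesis 35 of 49 members were higher and in fasting and gluconeogenesis 12 of 20 were lower.

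Markers of the cells that liver can hold were measured on the same probe sets. None of 8 hepatocyte markers was called (all 8 lower with ribosomal centring): Alb (albumin) read 14.16 to 14.24 at 1 h and 14.18 to 14.24 at 12 h, and Apoa1 13.93 to 14.02 and 13.97 to 14.05, near the upper end of the scale, where a change can be hidden. Their mean level was 13.65 to 13.68 at 1 h and 13.53 to 13.57 at 12 h, which did not overlap. Of 7 neutrophil markers 3 rose and none fell (2 and 0 without 1 h replicate 3), Cxcl2 and S100a9 among them, and the list mean was 3.99 to 4.42 at 1 h and 4.63 to 7.04 at 12 h. Of 13 markers of monocytes and macrophages 3 rose (2 without 1 h replicate 3, 3 and 4 with ribosomal centring), among them Cd68 with 1.07 ± 0.22 and Msr1, a scavenger receptor, with 0.97 ± 0.16; the list mean was 6.21 to 6.64 and 6.58 to 7.01. Marco, a scavenger receptor and 1 of the 2 of 9 Kupffer cell markers that rose, changed by 1.38 ± 0.26; without 1 h replicate 3, 1 rose. Of 20 markers of liver endothelium 3 rose and 1 fell (2 and 2 without 1 h replicate 3, 2 and 11 with ribosomal centring), so that Lyve1 (1.92 ± 0.34) and the Wnt enhancer Rspo3 (1.17 ± 0.24; -0.12 on its other probe set) went up and Wnt2 (-1.11 ± 0.22) went down.

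Among 8 cholangiocyte markers Sox9, which hepatocytes also express after injury, rose from 5.12 ± 0.20 to 6.85 ± 0.39, the list's 1 call. None of 6 markers of T and NK cells was called (5 lower with ribosomal centring). Cd8a lay at 5.04 ± 0.04 and 4.77 ± 0.20 and Nkg7 at 4.40 ± 0.20 and 4.27 ± 0.02. Of 17 stellate cell and fibroblast markers 1 rose (none without 1 h replicate 3 or without 16 d replicate 5), of 7 B and plasma cell markers 1 rose and 1 fell, and of 5 erythroid and platelet markers 1 rose and 1 fell. Of 7 markers of pancreas, a neighbouring tissue, 2 fell and none rose (1 and 0 without 1 h replicate 3), with list means of 4.62 to 5.03 and 4.46 to 4.69. Of 8 skeletal muscle markers 1 rose, and of 3 adipose markers 1, Cidec. The calls of B cell, pancreas, muscle and stellate cell markers, and the erythroid fall, each ended when some 1 array was left out. Over all genes 6.99% rose and 8.94% fell, and no marker list was tested against these shares. With ribosomal centring the counts higher and lower were 1 and 3 for Kupffer cells, 0 and 7 for stellate cells, 1 and 5 for cholangiocytes, 0 and 5 for B cells, 1 and 3 for erythroid cells and 0 and 5 for muscle. The part of other cell types in the changes above was not tested.

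Of the 8616 probe sets with no gene symbol 612 were called (7.10%), 179 higher and 433 lower. Their median level was 3.66, and of all member probe sets below a level of 4, 4.14% were called. The largest changes among those with separate arrays were 3.07 ± 0.25 for 1443004_at and 2.89 ± 0.29 for 1441971_at, and -2.36 ± 0.42 for 1441430_at and -1.99 ± 0.22 for 1440993_at. These transcripts are not named in the annotation used here.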

How the data were processed

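Liver RNA was hybridised to 1-colour Affymetrix Mouse Genome 430 2.0 arrays. The deposited values are log2 expression levels of probe sets, made with RMA in oligo 1.52.0 per the submitters' processing notes; the probe-level data were not used here. RMA subtracts background, normalizes the arrays together and summarises probes, so an overall shift between groups can be removed and low levels are compressed. Members, gene lists and motifs were chosen with earlier results of these data known, and no list is tested on its own. The number of arrays limits the precision.

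All 45101 probe sets of the 25 complete arrays were fitted together with limma 3.58.1 in R 4.3.3, with 1 mean per group and moderated (eBayes) tests. P-values were Benjamini-Hochberg adjusted over all probe sets. On simulated data of 45101 probe sets for 12 h against 1 h, 90 of 100 changes of log2 size 1 and 100 of 100 of size 2 were recovered, with 17 false calls among unchanged probe sets. The simulated noise was normal and independent between probe sets, 200 of which were changed. It held no outlying arrays, so these numbers do not give the error rate in the real data.

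Genes were chosen for description by rule: the 12 largest rises and falls without control values at any probe set, the 4 largest each way with a probe set of the other kind, up to 4 called members of each list, and 2 unnamed probe sets each way. Largest rises and falls had separate groups. Genes named by this rule had no other probe set called in the opposite direction, unlike Eif3d, Plpp2 and Pde4dip. Genes named only for a motif, Eif3d, Plpp2, Pde4dip, Acnat2 and the other genes given in ranges were chosen after their values were seen. Of the 184 chosen genes that were called, 34 lost the call when 1 array of 1 h or 12 h was left out; of these, Chac1 is described by name and the others by counts. Of 36 called genes named outside the rule 6 lost the call in the same way: Acnat2, Eif3d, Nle1, Nmd3, Pck2 and Pde4dip. Same-numbered arrays of 1 h and 12 h were not treated as pairs. Alternatives, including other normalizations, centring, filters and left-out arrays, are given in the closing section, and 1 h replicate 3 and 16 d replicate 5 are also left out beside list counts; those that leave out the manufacturer's control probe sets, both narrow arrays or 16 d replicate 5 were added after seeing the data.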

Additional observations from a re-analysis of the deposited data

Results flagged for a closer look

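In groups of 5 arrays, 316 sets of values were screened for a lowest or highest array set off from the other 4, and 32 were marked; chance marks about 5% of such sets. Array 3 of 1 h had the smallest SD of its group, 1.916 against 2.059 to 2.097, and a median of 4.713 against 4.561 to 4.588. Array 4 of 16 d had an SD of 1.914 against 2.096 to 2.105 and a median of 4.71 against 4.549 to 4.572.

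At 1 h, replicate 3 was the lowest array for Hsd3b2 (6.342, others from 7.278), Iars (7.56, others from 8.074), Kdm1a (6.541, others from 7.368), Mcl1 (9.434, others from 9.881) and Mme (4.345, others from 5.739). It was also lowest for Pdk1 (5.968, others from 7.297), Pgd (7.266, others from 8.159), Srsf10 (5.47, others from 6.515), Tenm3 (6.215, others from 7.406) and Ulk2 (7.475, others from 8.002). Sprr1a was lowest on replicate 2 of 1 h, at 4.517 against 5.09 to 5.131.

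At 12 h, replicate 2 was low for Hspa1a (9.047, others from 11.69), Hamp2 (9.742, others from 11.01), Manf (10.88, others from 11.54), Neat1 (8.602, others from 9.719) and Slc10a2 (5.618, others from 7.175). It was high for Snhg1 (10.15, others up to 9.047) and Tsr1 (9.544, others up to 8.4). Replicate 3 of 12 h was low for Glul (8.012, others from 8.613), Papss2 (7.645, others from 8.538), Scap (9.052, others from 9.325), Slc7a2 (9.46, others from 10.76), Srsf10 (7.302, others from 7.519) and Nkg7 (4.23, others from 4.27). It was high for Marco (9.047, others up to 7.729) and Cd68 (7.692, others up to 7.391). Atf3 was highest on replicate 5 of 12 h at 11.99 against 11.29 to 11.46, and Ugt2b1 was lowest on replicate 1 at 9.878 against 10.54 to 10.73.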

How the results depend on the processing

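Ribosomal centring gave 10796 genes called, 485 higher and 10311 lower, with 8673 among genes without any control value; by probe set 26679, 879 higher and 25800 lower, 290 and 1209 at least 2-fold; Alb and Apoa1 turned to -0.35 and -0.37. Leaving out probe sets ending in _x_at, _s_at or _a_at, and so testing fewer, gave 1565 genes (623 higher) and 2888 probe sets (1064 higher, 373 at least 2-fold). With the 10 arrays of 1 h and 12 h alone 919 genes and 1612 probe sets were lower, and with median centring 868 and 1557. The cause of the other shifts was not tested. Leaving out 1 array gave 1914 to 2427 genes (836 to 1088 higher, 956 to 1539 lower; 1432 to 1847 without any control value) and 3501 to 4544 probe sets (1543 to 2014 higher, 1731 to 2700 lower; 480 to 674 and 258 to 518 at least 2-fold). The lowest number of probe sets called lower came without 12 h replicate 2, and that of at least 2-fold lower without 12 h replicate 3. Of 153 genes named, 15 of the 149 called lost the call under some setting: 6 with the mean of a gene's probe sets (Aen, Hamp2, Hnf4a, Hnrnpd, Psmd11, Scap), 6 with ribosomal centring (Aars, Hars, Psmd3, Psmd7, Psmd11, Psmd12), 3 with the 10 arrays (Ifit3, Ndufa6, Wipi1), Ndufa6 also with median centring, and Chac1 without 12 h replicate 2. Genes that lost the call without 1 array, other than Chac1, are not among these 153. The 15 therefore do not measure how often calls were lost. Among all 184 chosen genes that were called, 34 lost the call without 1 array. With the replicate number as a block 5073 probe sets were called; same-numbered arrays correlated at 0.20, -0.21, 0.45, 0.14 and 0.37, 3 of 5 best with their own number; 1 pair lies under 0.1, so the arrays were not paired, and whether the numbers mark pairs is undecided. The block gave 7 and 1 for the endoplasmic reticulum list, 0 and 7 for bile acid genes, 9 and 4 for cytokines and 1 and 2 for DNA replication, higher and lower. Of 96 called genes named that have several probe sets, the mean over them was smaller by over 1.5 times for 35, all with the same sign. Levels near the ends of the scale limit what can be seen.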

Other observations

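Gene families outside the lists are set beside the shares over all genes. Of 46 translation initiation factors (Eif) 20 rose and 2 fell, against 6.99% higher and 8.94% lower over all genes; ribosomal centring turned this to 8 and 16. Eif4e, the protein that binds the mRNA cap, rose by 1.44 ± 0.11 (SE, 5 arrays each), and Eif6, a factor of large subunit assembly, by 1.32 ± 0.15. Of 45 DEAD and DEAH box RNA helicases 10 rose and 2 fell (5 and 12 with ribosomal centring). Ddx39a and Ddx39b, helicases of mRNA export, rose by 1.46 ± 0.18 and 1.27 ± 0.15. Of 61 mitochondrial ribosomal proteins 3 rose (4.92%) and 2 fell (3.28%), beside 6.99% and 8.94% over all genes. Their counts were 3 and 4 without 1 h replicate 3, and 0 and 37 with ribosomal centring. Of 33 cytosolic ribosomal proteins 14 rose and none fell, by construction 1 and 12 with ribosomal centring.

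Of 290 solute carriers 19 rose (6.55%) and 40 fell (13.8%). Slc39a10, a zinc importer, rose by 1.98 ± 0.30, and Slc17a2, a phosphate carrier, changed by -1.54 ± 0.24. Of 21 acyl-CoA dehydrogenases and synthetases 1 rose and 8 fell. Acsl4, which activates arachidonic acid, rose by 1.42 ± 0.17 while Acadsb, of branched-chain amino acid breakdown, changed by -0.81 ± 0.11. Of 37 ABC transporters 2 rose and 5 fell (1 and 5 without 1 h replicate 3). Abcc1, an efflux pump for glutathione conjugates, rose by 1.07 ± 0.21 and Abcb4, the phospholipid exporter of bile, changed by -1.13 ± 0.14. Serpina9, a serpin of germinal centre B cells, rose by 2.76 ± 0.28. Of 1332 genes that RefSeq lists as long noncoding RNAs 20 rose (1.5%) and 87 fell (6.53%), below both shares over all genes. They were dim, with a median level of 3.89 against 5.49 over all genes. Of member probe sets below a level of 4, 4.14% were called, beside 8.03% of these noncoding genes. Their counts were 15 and 54 without 1 h replicate 3, and 26 and 43 with median centring. AW112010, a member of this group, changed by -1.49 ± 0.16. Of 312 zinc finger (Zfp) genes 20 rose (6.41%) and 12 fell (3.85%), beside 6.99% and 8.94% over all genes. The share of zinc finger genes that rose was thus near that over all genes. Their counts were 13 and 18 without 1 h replicate 3, and 7 and 194 with ribosomal centring. These families were chosen after the data were seen and have no test of their own.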
